A study of Homo sapiens with 6 samples.

Results

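PRMT5 was listed at 563 places in the genome of LNCaP cells where neither the PRMT5 list of PC3 cells nor the METTL3 list of LNCaP cells had an entry. These LNCaP-only peaks were selected on the peak calls themselves. A LNCaP PRMT5 entry was kept when it shared not even 1 bp with either of these lists and lay over 1 Mb from both ends of its chromosome. The 563 peaks came from 980 LNCaP PRMT5 entries on chromosomes 1 to 22, X and Y, of 1084 deposited entries, in a series of 4 lists with 10504 entries. Of the 980 entries, 298 overlapped a PC3 PRMT5 entry and 73 overlapped a LNCaP METTL3 entry. The 636 entries that overlapped neither included 73 within 1 Mb of a chromosome end, which were left out.

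The series profiled chromatin in LNCaP and PC3, both established human prostate cancer cell lines, with no treatment named in the labels. LNCaP cells came from a lymph node metastasis and respond to androgen, and PC3 cells came from a bone metastasis and grow without it. Each line had 1 library with a PRMT5 antibody, 1 with a METTL3 antibody and 1 control titled IgG, whose antibody field names only a secondary antibody, 6 libraries in all. Each library started from 100000 cells and 16 PCR cycles, and protein G-Tn5 transposase cut the chromatin beside the bound antibody. Every peak was called by the authors on 1 library, so a difference between the lines has no replicate check, the depth of the libraries is unknown, and the absence of an entry does not show that PRMT5 was absent from that place.

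PRMT5 is the main enzyme that places symmetric dimethyl marks on arginines, in histones H3 and H4, in splicing proteins and in transcription factors. It works in a complex with WDR77 and has no DNA-binding domain of its own, so it reaches chromatin through other proteins. METTL3, the other protein profiled, is the catalytic subunit of the enzyme that writes m6A on RNA. The E-box CACGTG, which recurs below, is the DNA element of basic helix-loop-helix factors such as MYC, MAX, USF1 and CLOCK, and its longer form TCACGTGA is the element of the lysosomal regulators TFEB and TFE3.

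The summits of 69 LNCaP-only peaks lay inside the RefSeq promoter window of a protein-coding gene, which runs from 250 bases before to 50 bases after the start of transcription. The sequences below are from the 8 such peaks of highest fold outside 1 chromosome that is not printed here, with 1 promoter per peak. Fold is the authors' peak caller's ratio of PRMT5 signal over the control's expected signal. They were taken by fold alone, to show the promoters of the strongest peaks, and all 8 held the E-box. Sequences are RefSeq, build GRCh38.p14, read 5′ to 3′ in the direction of the gene, with each CACGTG in capitals. TUG1, RIMOC1 and PHC2 are given as the 250 bases before the start, and the others as 46 bases around the E-box nearest the summit.
TUG1 (chr22:30969015-30969264, plus strand): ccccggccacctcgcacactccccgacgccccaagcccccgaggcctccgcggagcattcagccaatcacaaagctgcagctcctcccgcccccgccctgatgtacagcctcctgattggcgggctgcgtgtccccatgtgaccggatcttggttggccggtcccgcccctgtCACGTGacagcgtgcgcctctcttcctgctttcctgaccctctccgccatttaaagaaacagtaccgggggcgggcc
RIMOC1 (chr5:41904094-41904343, plus strand): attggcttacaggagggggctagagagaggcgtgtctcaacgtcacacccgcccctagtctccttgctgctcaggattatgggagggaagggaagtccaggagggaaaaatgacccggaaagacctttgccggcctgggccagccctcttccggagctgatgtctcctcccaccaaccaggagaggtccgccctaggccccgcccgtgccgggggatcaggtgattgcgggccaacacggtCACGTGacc
PHC2 (chr1:33431096-33431345, minus strand): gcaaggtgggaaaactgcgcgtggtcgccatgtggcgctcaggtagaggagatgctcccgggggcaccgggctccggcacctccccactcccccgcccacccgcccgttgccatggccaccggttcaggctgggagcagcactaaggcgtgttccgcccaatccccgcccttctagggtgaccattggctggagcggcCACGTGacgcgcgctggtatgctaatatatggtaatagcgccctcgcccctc
CUTA (chr6:33418079-33418124, minus strand): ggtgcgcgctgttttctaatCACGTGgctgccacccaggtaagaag
UBAP2L (chr1:154220689-154220734, plus strand): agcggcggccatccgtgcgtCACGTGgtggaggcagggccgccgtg
CDIP1 (chr16:4538894-4538939, minus strand): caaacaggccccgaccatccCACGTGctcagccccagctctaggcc
TDG (chr12:103965772-103965817, plus strand): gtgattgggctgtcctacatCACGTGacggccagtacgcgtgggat
OTUD1 (chr10:23439000-23439045, plus strand): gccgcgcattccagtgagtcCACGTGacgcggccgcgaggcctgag

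TUG1, a gene best known for its long noncoding RNA and typed as protein coding in the RefSeq table, had the highest fold of the 8 at 21.8, with its summit 148 bases before the start. The peak also lay 343 bases from the start of MORC2, an ATPase of heterochromatin that is transcribed the other way. RIMOC1, a partner of the late endosome GTPase RAB7A, had a fold of 17.1, and PHC2, a subunit of Polycomb complex PRC1, had 17. CUTA, UBAP2L and CDIP1 had folds of 16.5, 16.4 and 15.2. TDG, a glycosylase that takes mismatched thymine out of DNA, had 14.4, and OTUD1, a deubiquitinase, had 14.1. No PC3 PRMT5 entry lay within 3 kb of the ends of 7 of these genes. The exception was UBAP2L, a stress granule protein, where a PC3 entry with a fold of 5.53 lay 218 bp from the LNCaP-only peak without overlapping it.

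Of the 74 promoter windows that held a LNCaP-only summit, which is 0.467% of the 15842 protein-coding windows, 54 (73.0%) held CACGTG on either strand. The exact 95% interval was 61.4% to 82.6%, and 8.88% of all windows held the motif. Read the other way, 54 of 1407 windows with an E-box held a LNCaP-only summit (3.84%), against 20 of 14435 windows without one (0.139%). TCACGTG, which contains CACGTG, was in 63.5% of the 74 windows and 4.78% of all windows. TCACGTGA, which contains both, was in 23% and 1.43%. Among all 2080 six-base words with their reverse complements, CACGTG had the largest excess over all windows, 64.1 percentage points. The next words by excess were ACGTGA at 67.6% of windows, which overlaps CACGTG by 5 bases, and then CGTGAC at 64.9%. This count of words was added after the motif values had been seen.

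**Figure D1:**
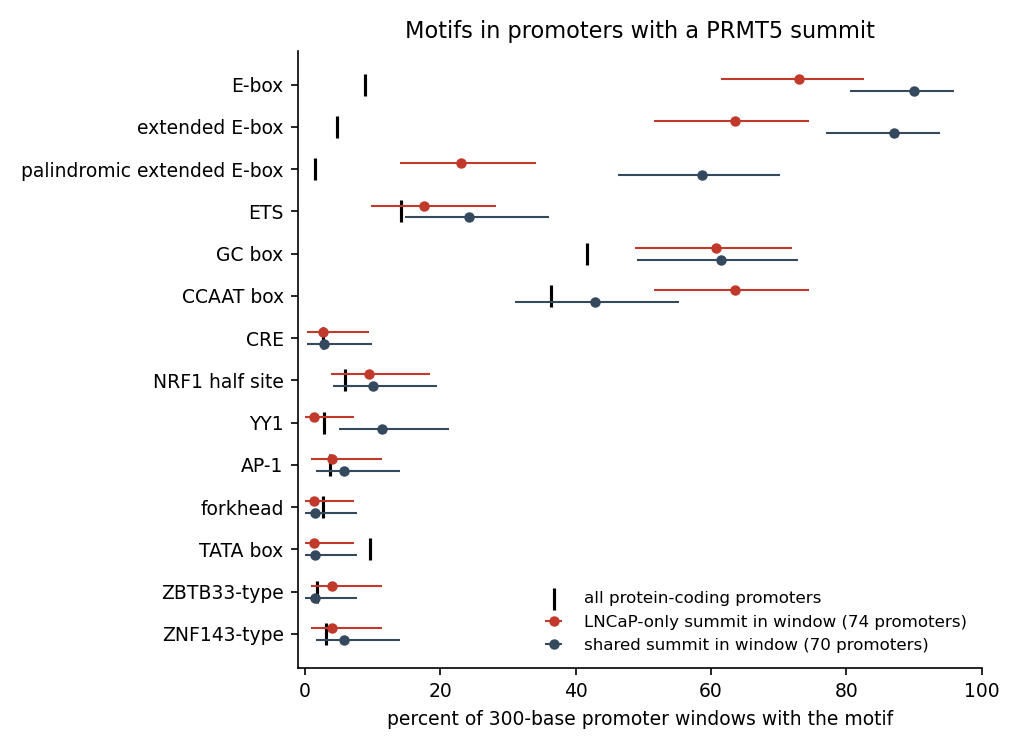
Percent of 300-base promoter windows that hold each of 14 motifs, for 74 protein-coding promoters with a LNCaP-only PRMT5 summit, 70 with a shared summit and all 15842 (black bars), with exact 95% binomial intervals. E-box forms lie far to the right of the black bars in both sets, and for the LNCaP-only promoters the interval of every other motif but the GC, CCAAT and TATA boxes includes its bar.

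Other promoter elements were less distinct. CCAAT was in 63.5% of the 74 windows against 36.4% of all, and the GC box GGGGCGG in 60.8% against 41.6%, in windows whose median GC content was 66.0% against 62.7%. The ETS word CCGGAAG was in 17.6% against 14.2%. The forkhead word TGTTTAC was in 1.35% against 2.61%. TATAAA was in 1.35% against 9.63%. These are shares of windows with the letters on either strand, and a match is not evidence of a bound factor.

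The E-boxes lay near the summits. Across the 54 promoters with an E-box, the nearest one was a median of 23.5 bases from the summit, and in 42 (77.8%) it was within 50 bases. Of all 76 E-boxes in these windows, 61.8% lay within 50 bases of the summit, a zone that on average covers 32.3% of a window. The summits themselves lay mostly before the start, in 70 of 74 promoters, with a median position of -106.5 bases from it. Where a LNCaP-only summit was within 3 kb of a start but outside the window, 19 of 81 windows held an E-box (23.5%, exact 95% interval 14.8% to 34.2%). Of 6 lncRNA promoter windows with a LNCaP-only summit, 5 held an E-box, against 5.44% of all 11461 lncRNA windows.

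**Figure D2:**
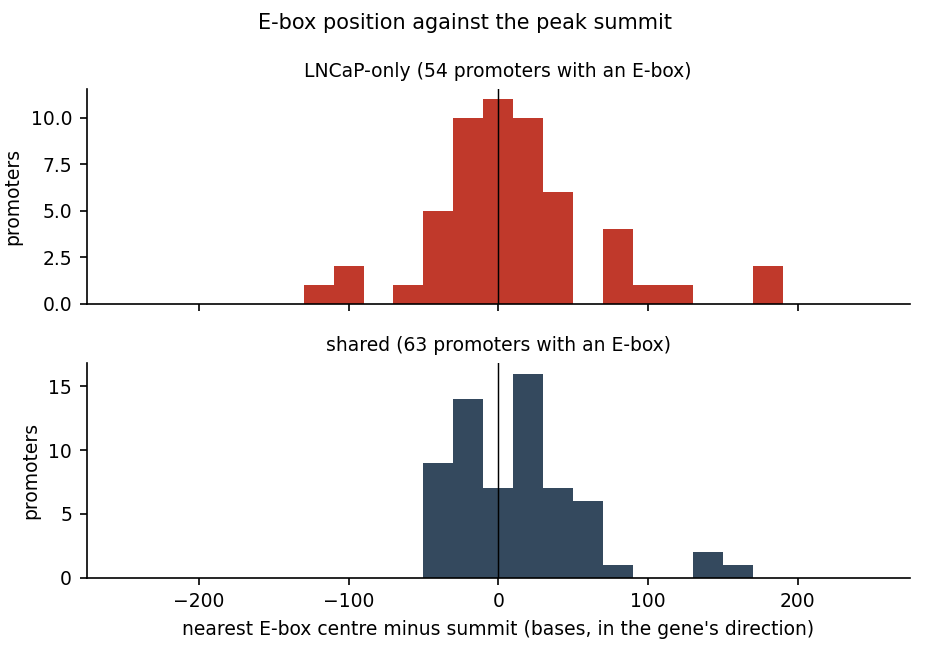
Distance from the PRMT5 summit to the centre of the nearest E-box, in bases and in the direction of the gene, for 54 promoters with a LNCaP-only summit (top) and 63 with a shared summit (bottom); bars count promoters in bins of equal width. Most of both distributions lies within 50 bases of the summit.

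E-boxes were fewer at LNCaP-only promoter peaks than at promoter peaks of both lines. The shared set is the 200 LNCaP PRMT5 entries that overlapped a PC3 PRMT5 entry and no LNCaP METTL3 entry, at the same distance from chromosome ends. Counted by peak, 51 of 69 LNCaP-only promoter peaks had an E-box (73.9%) against 55 of 60 shared ones (91.7%; two-sided Fisher's exact test, Benjamini-Hochberg adjusted p = 0.0172 over 8 comparisons). TCACGTGA was in 17 of 69 (24.6%) against 35 of 60 (58.3%; Fisher's exact test, adjusted p = 0.000375). Peaks are the units of these tests, which describe the lists and not the cell lines. Among peaks of fold 10 and over the differences were -6.68 and -19.4 points and neither passed (Fisher's exact test, adjusted p = 0.646 and 0.379).

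The share with an E-box moved with fold among the LNCaP-only peaks. It was 11 of 25 under a fold of 7 (44.0%), 23 of 25 from 7 to 10 (92.0%) and 17 of 19 at 10 and over (89.5%). The shared peaks had 84.6%, 90.5% and 96.2% in the same classes, on 13, 21 and 26 peaks. The set of PC3-only PRMT5 peaks held 1124 entries that overlapped no LNCaP PRMT5 and no PC3 METTL3 entry. It is not an exact mirror of the LNCaP-only set, because the METTL3 filter was unequal. On the chromosomes used, the PC3 METTL3 list had 7453 entries and the LNCaP METTL3 list 173. Every comparison of LNCaP-only with PC3-only peaks carries this unequal filter, and its effect was not tested. PC3-only peaks had few summits in promoter windows. Of 29 such peaks 18 had an E-box (62.1%, exact 95% interval 42.3% to 79.3%), which was not distinguished from the LNCaP-only share (Fisher's exact test, adjusted p = 0.38). T stood before the motif on both strands at 26.3% of E-boxes in LNCaP-only windows, 30.4% in PC3-only windows, 45.2% in shared windows and 15.6% in all windows, and these shares were not tested.

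Genes of lysosomes, autophagy and endosomes were among those with LNCaP-only peaks at their ends. A peak was at a gene end when its summit was no further than 3 kb from the first or last base of a protein-coding gene, and 212 of 20037 genes (1.06%) had such a peak. The 6 lists on these organelles held 20 of 287 genes (6.97%), and the other 15 lists together 8 of 456 (1.75%). These genes were not particular to LNCaP-only peaks. Of the same 287 genes, 45 had any LNCaP PRMT5 entry at an end and 40 had any PC3 PRMT5 entry. Of the 456 genes, 19 and 28 did. No test was run on the lists, which were chosen with earlier results of these data known. The 20 peaks had folds from 5.09 to 15.7 with a median of 7.82, and the 212 genes a median of 7.04.

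**Figure D3:**
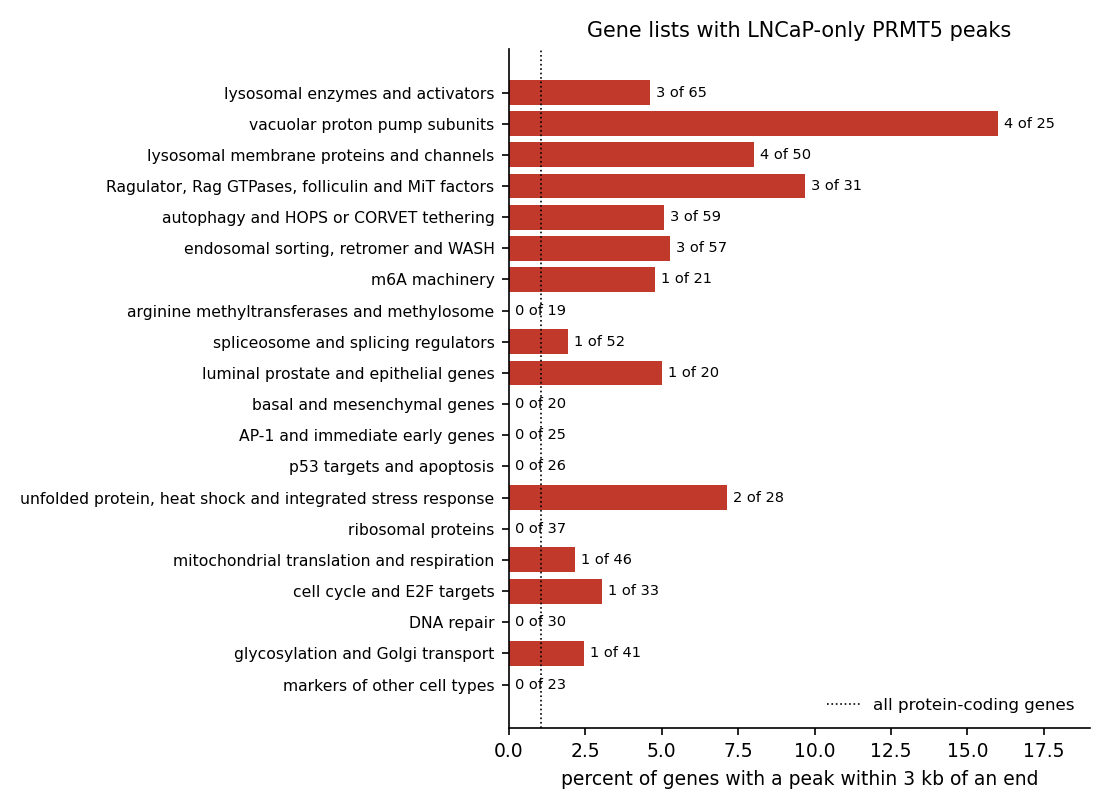
Percent of the genes of each of 20 lists with a LNCaP-only PRMT5 peak within 3 kb of an end, with counts beside the bars; the dotted line marks 1.06%, the share of all protein-coding genes. The 6 lists at the top, from lysosomal enzymes to endosomal sorting, lie between 4.62% and 16.0%, and 7 lists are at 0.

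Among lysosomal enzymes and their activators, 3 of 65 genes had a LNCaP-only peak. HEXA, the alpha subunit of beta-hexosaminidase A, had the highest fold, 15.7, at a peak of 1336 bp whose summit lay 92 bases from the gene's end. CTSD, the aspartic protease cathepsin D, had 7.96, and TPP1, a tripeptidyl peptidase, had 5.71. No PC3 PRMT5 entry lay at the ends of these 3 genes.

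Of the subunits of the vacuolar proton pump, which acidifies lysosomes, 4 of 25 had a LNCaP-only peak. ATP6V0B had a fold of 8.14, ATP6V1C1 7.85, ATP6V1G1 6.91 and ATP6V0D1 6.14. The last 2 each had a higher LNCaP PRMT5 entry at the same gene that was not LNCaP-only, with folds of 32.4 and 18.4. PC3 entries that did not overlap the LNCaP-only peak lay at ATP6V0B with a fold of 6.18, at ATP6V1G1 with 5.43 and at ATP6V0D1 with 12.9. ATP6V1C1 had no PC3 PRMT5 entry at an end.

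Lysosomal membrane proteins had 4 of 50. CD164, a sialomucin, had a fold of 11.3, the chloride-proton exchanger CLCN7 had 7.9, the transporter SLC49A4 had 7.4 and CLCN6 had 6.62. CLCN6 also carried a LNCaP entry of fold 23.4 outside the LNCaP-only set, and a PC3 PRMT5 entry of fold 7.33. The SLC49A4 peak lay 1241 bases from that gene, with its summit in the promoter window of HSPBAP1, 3 bases from the HSPBAP1 start. In the list of Ragulator, Rag GTPases, folliculin and MiT transcription factors, 3 of 31 genes had a peak. They were the Rag GTPase RRAGB with 7.56, the Ragulator subunit LAMTOR4 with 6.99 and the mTOR partner MLST8 with 5.09. The MLST8 peak lay 1594 bases from that gene, with its summit in the promoter window of BRICD5, 184 bases from the BRICD5 start.

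In autophagy and vesicle tethering, 3 of 59 genes had a peak. WIPI1, which binds phosphoinositide at the forming autophagosome, had 10.1, UVRAG had 8.55 and GABARAP, a ubiquitin-like protein of the autophagosome membrane, had 6.25. In endosomal sorting 3 of 57 had one: BLOC1S1 with 11.3, IGF2R, the receptor that carries mannose 6-phosphate enzymes to lysosomes, with 11, and WASHC2A, a subunit of the WASH complex, with 7.8. Across the 20 genes, 13 had no PC3 PRMT5 entry at an end and 7 had one that did not overlap the LNCaP-only peak. Over all 212 genes, 176 had none and 36 had one. In 5 of the 20 genes, and in 24 of the 212, another LNCaP PRMT5 entry at the same gene had a higher fold.

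In 8 of the 20 genes the summit lay in the promoter window, and 7 of the 8 windows held an E-box. Over all 212 genes with a LNCaP-only peak at an end, 69 had the summit in the window and 50 of these windows held an E-box. The E-box is therefore not particular to these 20 genes. TPP1 was the exception. The 46-base stretches around the E-box nearest the summit are shown for the 7 genes, which were chosen after their values were seen. Each CACGTG is in capitals, from RefSeq GRCh38.p14 as above.
BLOC1S1 (chr12:55716024-55716069, plus strand): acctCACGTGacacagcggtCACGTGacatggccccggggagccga
IGF2R (chr6:159968930-159968975, plus strand): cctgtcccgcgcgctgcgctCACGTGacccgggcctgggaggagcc
ATP6V0B (chr1:43974883-43974928, plus strand): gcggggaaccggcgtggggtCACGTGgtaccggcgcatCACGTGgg
CTSD (chr11:1763949-1763994, minus strand): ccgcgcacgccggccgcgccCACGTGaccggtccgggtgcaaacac
CLCN7 (chr16:1475030-1475075, minus strand): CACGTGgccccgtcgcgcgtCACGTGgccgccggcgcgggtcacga
RRAGB (chrX:55717614-55717659, plus strand): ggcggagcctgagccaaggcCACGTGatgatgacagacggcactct
LAMTOR4 (chr7:100148884-100148929, plus strand): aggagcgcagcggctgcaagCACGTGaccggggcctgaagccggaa

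BLOC1S1, ATP6V0B and CLCN7 each had a pair of E-boxes inside the 46 bases shown. IGF2R and RRAGB each had 3 in the whole window. CTSD and LAMTOR4 had 1 each.

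The other 15 lists gave 8 genes, named here with their folds. YTHDF1, a reader of m6A on RNA, had 7.85 and was the only hit among 21 genes of the m6A machinery. HSP90B1 and PDIA4, a chaperone and a disulfide isomerase of the endoplasmic reticulum, had 6.43 each, 2 of 28 in the list on protein stress. Splicing genes had 1 of 52, HNRNPL with 9.1, respiration genes had ATP5MC1 with 11, and Golgi genes had GET3 with 6.2. CDK4, the cyclin D kinase, had 5.51 (1 of 33 cell cycle genes) and CLDN4, a tight junction protein of epithelia, had 7.77 (1 of 20 luminal and epithelial genes). The CDK4 peak lay 1945 bases from an end of that gene, which also had a LNCaP PRMT5 entry of fold 13.9. Of the 8 genes, 2 had a PC3 PRMT5 entry that did not overlap the LNCaP-only peak, CDK4 with 10.0 and ATP5MC1 with 7.67. Among the lists with no such gene were those of arginine methyltransferases (19 genes), basal and mesenchymal genes (20), immediate early genes (25), p53 targets (26), ribosomal proteins (37), DNA repair (30) and markers of other cell types (23). Over all protein-coding genes the share was 1.06%, so lists this short would often hold no such gene, and their lack of one is not read as a result. TDG, whose peak is named above, was not in the DNA repair list.

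The kallikrein genes of the prostate had no LNCaP-only peak at an end but lay near one. Of all protein-coding genes, 1009 (5.04%) lay within 50 kb of a LNCaP-only peak, and KLK2, KLK3 and KLK4 were among them. These 3 genes, which encode serine proteases and of which KLK3 encodes prostate-specific antigen, share a single peak of fold 16.7 at chr19:50896658-50897064. Its summit was 0.398 kb from an end of the pseudogene KLKP1, 9.55 kb from KLK4, 16.2 kb from KLK2 and 36.0 kb from KLK3. No PC3 PRMT5 or LNCaP METTL3 entry lay in this cluster, and 1 PC3 METTL3 entry of fold 6.83 lay 26 kb from the summit. The nearest LNCaP-only peaks to PRMT5, METTL3 and MYC were 1220, 1050 and 6900 kb away.

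Gene ends held 167 of the 563 LNCaP-only peaks (29.7%, exact 95% interval 25.9% to 33.6%). A further 176 lay inside protein-coding genes (31.3%) and 220 between genes (39.1%). Shared peaks were at gene ends in 126 of 200 (63.0%), so the LNCaP-only share was lower, with a difference of -33.3 points (Fisher's exact test, adjusted p = 2.07e-15). PC3-only peaks, which were filtered against a longer METTL3 list, were there in 296 of 1124 (26.3%). The difference of 3.33 points from the LNCaP-only share did not pass (Fisher's exact test, adjusted p = 0.198). It rested on the window: at 1 kb the shares were 23.4% and 12.7%, a difference of 10.7 points (adjusted p = 1.08e-07 by Fisher's exact test), and at 5 kb 34.8% and 35.2%. It also passed with starts only (10.6 points) and with ends of all gene types (7.93). A fold minimum was set on the LNCaP-only peaks alone, against all 1124 PC3-only peaks, and gave 6.36 points at 5 and 18.1 at 10. Those differences do not compare like with like, and no conclusion is drawn from them. At folds of 10 and over on both sides, the shares were 44.4% of 63 and 35.3% of 34 peaks, which was not tested.

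**Figure D4:**
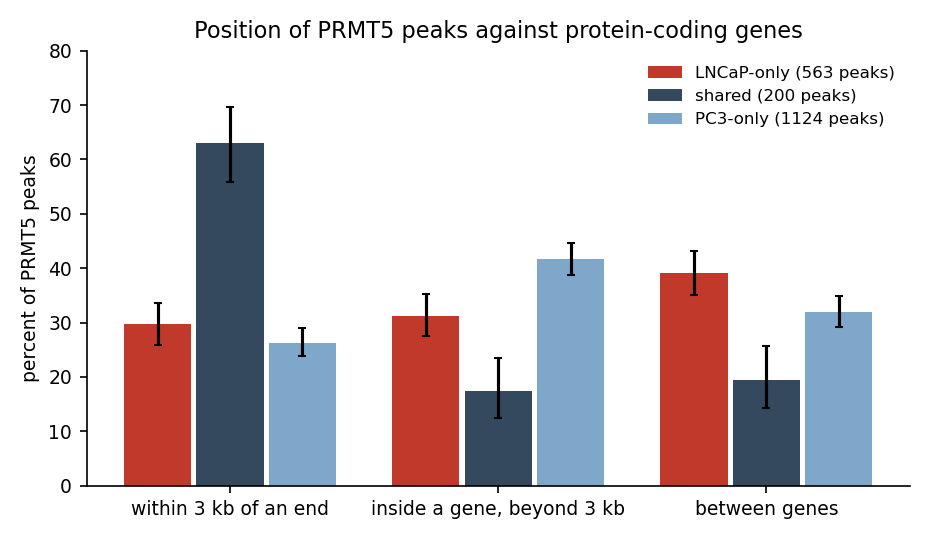
Percent of PRMT5 peaks within 3 kb of an end of a protein-coding gene, inside such a gene or between genes, for the LNCaP-only, shared and PC3-only peaks, with exact 95% binomial intervals. At gene ends the shared bar stands at 63.0% and the other bars at 29.7% and 26.3%.

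The ends in question were mostly starts. Of the 147 LNCaP-only peaks at ends of genes whose strand the reference gives, 134 were at a start (91.2%) and 33 at a 3′ end, 20 of them at both. PC3-only peaks were at a start in 150 of 238 (63.0%; Fisher's exact test, adjusted p = 9.5e-10), and shared peaks in 97 of 106 (91.5%; Fisher's exact test, adjusted p = 1). Divergent gene pairs, with starts on both sides, took 22 of the 136 LNCaP-only peaks within 3 kb of a start in the promoter table (16.2%, exact 95% interval 10.4% to 23.5%), 28% of shared and 10.5% of PC3-only ones. The values of PC3-only peaks given here also carry the unequal METTL3 filter. In all, 113 LNCaP-only peaks were at an end of 1 gene and 54 at ends of more than 1.

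The authors' folds, which come from the calls that chose the peaks and are given as a description, ran from 1.37 to 38.5 with a median of 6.43. The quartiles were 5.29 and 7.88, and 63 (11.2%) reached 10. Shared peaks had a median of 7.07 with 28% at 10 or over, and PC3-only peaks 5.89 with 3.02%. The median width of a LNCaP-only peak was 157 bp, between 110 and 1535 bp, and that of a shared peak 239 bp. Peaks at gene ends had a median fold of 6.99, those inside genes 6.43 and those between genes 5.88. The share at gene ends was 14.1% of 92 peaks under a fold of 5, 29.3% of 256 from 5 to 7, 33.6% of 152 from 7 to 10 and 44.4% of 63 at 10 and over. Among shared peaks the same classes gave 48.7%, 50.0%, 66.7% and 83.9%.

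**Figure D5:**
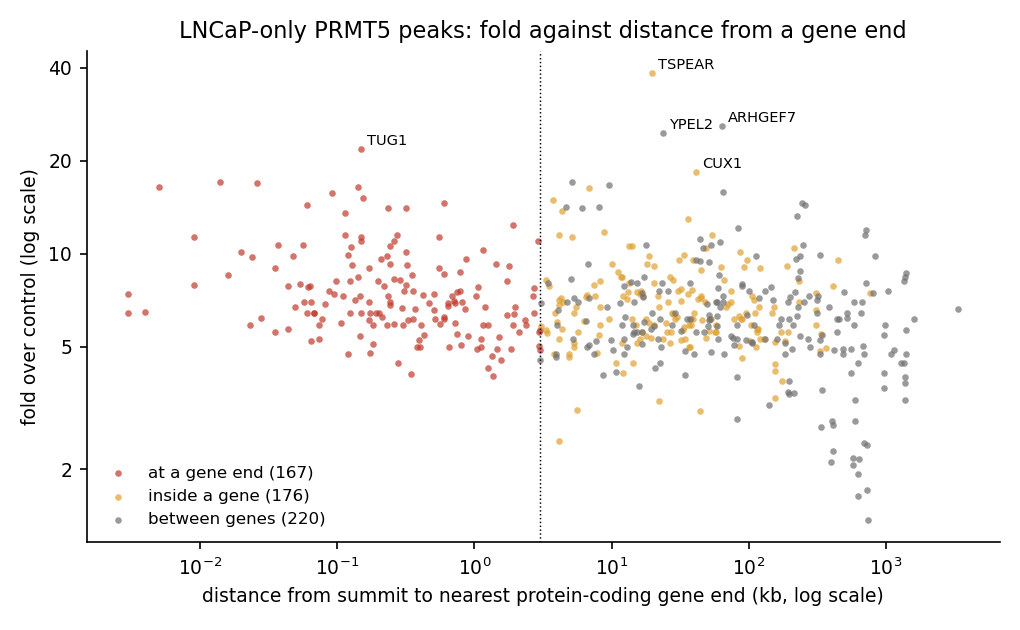
Fold over the control against the distance in kb from the summit to the closest protein-coding gene end, both on log scales, for all 563 LNCaP-only PRMT5 peaks, coloured by position; the dotted line is at 3 kb. The 4 highest peaks are TSPEAR at 38.5, ARHGEF7 at 25.9, YPEL2 at 24.6 and TUG1 at 21.8, and the lowest folds are between genes, far from an end.

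Of the 20 LNCaP-only peaks of highest fold, 9 were at gene ends, 4 inside genes and 7 between genes. The highest, 38.5, was inside TSPEAR on chromosome 21, 19.6 kb from its nearest end, and covered 891 bp. It was followed by peaks 63.4 kb from ARHGEF7 (25.9), an exchange factor for RAC1 and CDC42, and 23.7 kb from YPEL2 (24.6). The peak inside CUX1, a homeobox factor, had 18.4. Peaks of 17.1 near SLC25A10, the mitochondrial dicarboxylate carrier, and of 16.3 inside SLC12A4, a potassium-chloride cotransporter, lay 5.18 and 6.85 kb from an end. APOBEC1 (15.9), DIO3 (14.6) and SCG2 (14.4) were the nearest genes to peaks 65.1, 246 and 257 kb away. PIWIL1, a germline Argonaute protein, held a peak of 14.9 with the largest width, 1535 bp. The peak at FAM86B1 (14.6) is in a family of near-identical copies, so its place is uncertain. The same limit holds for LNCaP-only peaks within 3 kb of FAM86C2P (14.1), FAM86GP (11.2) and FAM86C1P (10.4) on chromosome 11 and FAM86FP (3.73) on chromosome 12. The CUTA peak was also at an end of PHF1, a Polycomb-like protein, the CDIP1 peak at C16orf96, the TDG peak at UQCC6 and the UBAP2L peak at LTAP1. The HEXA peak and the one near KLK4 complete the 20.

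LNCaP-only peaks gathered in places. Runs of at least 2 peaks under 10 kb apart numbered 45 and held 116 peaks (20.6%), and 10 runs of at least 3 held 46. At DANT1 and DANT2 on the X chromosome, noncoding genes at the tandem repeat array DXZ4, 10 peaks stood in 44.1 kb with a median spacing of 5.94 kb and folds from 3.53 to 9.6. All 10 LNCaP PRMT5 entries there were LNCaP-only, and the other 3 lists had none in this stretch. At TSPEAR 8 peaks stood in 14.2 kb, with folds of 8.42, 10.6, 5.42, 5.96, 38.5, 8.04, 5.34 and 5.14 in order along the chromosome. The other 3 lists had no entry there either.

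Other runs lay in repeated sequence. On the short arm of chromosome 21, between 8223928 and 8466170, among ribosomal DNA units, 13 LNCaP-only peaks had low folds, from 1.64 to 4.43, and the PC3 PRMT5 list had 2 entries of 1.97 and 3.33. Beside DUX4L pseudogenes on the Y chromosome 5 LNCaP-only peaks had folds from 3.35 to 8.4, among 11 LNCaP PRMT5 entries and with entries in the other 3 lists. Reads from near-identical copies cannot be assigned to 1 copy, so the positions of these peaks, and of those at DANT1 and DANT2, are uncertain. Chromosome 21 as a whole held 29 LNCaP-only peaks, 5.15% of them, against 1.19% of protein-coding genes, and 13 of the 29 were the peaks among ribosomal DNA units and 8 those at TSPEAR. Chromosome 19 held 42 (7.46% against 7.24%).

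METTL3 in PC3 is the list that did not choose the LNCaP-only peaks. Its overlap with them is given without a share for all LNCaP PRMT5 entries or for random positions, so it is not called high or low. The PC3 METTL3 list has 7453 entries on these chromosomes, and 13 of the 563 peaks (2.31%) overlapped one, against 13 of 200 shared peaks (6.5%; Fisher's exact test, adjusted p = 0.0172). Shared peaks had to overlap a PC3 PRMT5 entry and LNCaP-only peaks had to overlap none. That PC3 list was called against the same PC3 control as this METTL3 list. The difference is therefore not independent of how the peaks were chosen, and no conclusion is drawn from it. The difference did not pass with 5 Mb left out at chromosome ends (-2.56 points, Fisher's exact test, adjusted p = 0.185) or at folds of at least 5 (-1.82 points, adjusted p = 0.305 by the same exact test) or 10 (-1.79 points, adjusted p = 0.627 by the same exact test). None of the 13 LNCaP-only peaks was at a gene end. The 6 of highest fold were inside DMD (7.85), near PPP2R2D (6.87), inside IL1RAPL1 (6.71), BCL2 (6.43) and ADAMTS12 (6.43), and near DIRAS2 (6.14).

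How strictly the lists were told apart can be read from the peaks beside each threshold. The 5 LNCaP-only peaks nearest a PC3 PRMT5 entry were 13 to 165 bp away, and in all 26 (4.62%) were within 1 kb of one and 156 (27.7%) within 100 kb. The 5 LNCaP PRMT5 entries with the smallest overlaps, which the rule left out, overlapped a PC3 entry by 7 to 70 bp. For METTL3 in LNCaP the nearest LNCaP-only peaks were 18 to 149 bp away and the smallest overlaps 9 to 112 bp. At chromosome ends the nearest kept were 1044 to 1192 kb from the end and the nearest left out 934.9 to 996.7 kb.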

How the data were processed

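The authors deposited 4 peak lists on hg38, 1 per antibody library, with the control libraries entering only through the calls. Per the submitters' processing notes, ChIPseeker, MACS2 2.1.0, Bowtie 1.1.1, Trimmomatic 0.33 and bcl2fastq 2.17 were used, with settings not given in the sources used here. For every deposited entry there is a score, a fold (a ratio over the control), −log10 p and −log10 q values and a summit offset, all the authors' own. They served to describe and rank peaks and to set minimums. Read counts were not used here, so depth is unknown.

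Overlaps of at least 1 bp, distances and motif counts were computed with Python 3.11.15, pandas 2.3.3, NumPy 2.4.6 and SciPy 1.17.1, with scripts tested on simulated intervals. Gene positions (59679 genes, 20037 protein-coding) and promoter windows (300 bases) came from RefSeq tables of GRCh38.p14, whose primary coordinates are those of hg38. Strand was known for 15842 protein-coding genes (79.1%). Of 745 list names 742 matched. Shares have exact (Clopper-Pearson) 95% intervals, which cover counting error only. Fisher's exact tests were two-sided, with Benjamini-Hochberg adjustment over 8 comparisons, 5 of them added after seeing the data.

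The LNCaP-only rule, the gene lists and the tests were chosen with earlier results of these data known. Named were the 20 peaks of highest fold, the 5 nearest each threshold, up to 4 genes per list by fold, the 8 promoter peaks of highest fold for sequences, up to 6 peaks overlapping PC3 METTL3, and PRMT5, METTL3, KLK3 and MYC. Some items that this rule names are not reported here. Alternatives varied the overlap, the distance from chromosome ends, fold and q minimums, the window, the end, the gene types, the part of the peak and the assignment to genes. Exon, intron and UTR positions and sequence outside the promoter windows were not analysed here.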

Additional observations from a re-analysis of the deposited data

How the results depend on the processing

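No paired analysis was possible because each group has 1 library, and for the same reason no replicate could be left out. Of 79 recomputed values of the main counts, shares and gene-end differences, 61 kept their direction and side of the threshold or stayed close to the reported value, and the others follow. Of 48 recomputed values of the other differences, 37 did so, 5 no longer passed, as given with each comparison, and 6 changed sign. With only peaks of fold 10 and over, 63 LNCaP-only peaks remained, 44.4% at gene ends, 0% overlapping PC3 METTL3, with 42 genes and E-boxes at 89.5% of promoter peaks. The share at gene ends was 23.4% with 1 kb, 34.8% with 5 kb, 24.2% with starts only and 45.6% with all gene types, which gave 380 genes. The PC3 METTL3 overlap was 0.178% when it had to cover 50% of both peaks.

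The difference in gene-end share from PC3-only peaks passed with a 50% overlap rule (5.61 points), 1 kb (10.7), all gene types (7.93) and starts only (10.6). With 5 kb it turned to -0.418 points. It also passed with fold minimums of 5 (6.36 points) and 10 (18.1). These minimums were set on the LNCaP-only peaks alone, so no conclusion is drawn from them. The unequal METTL3 filter enters every difference from PC3-only peaks. The difference in start share from shared peaks, near 0, changed sign to 0.341 (no minimum at chromosome ends), 0.809 (5 Mb), 2.25 (−log10 q of at least 3), 1.59 (fold of at least 5), 2.63 (fold of at least 10) and 0.633 points (without runs of at least 3 peaks, an alternative added after seeing the data). None of these passed. The causes were not tested.

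Depth is unknown, so the lists were not matched for it, and the number of peaks in a list depends on depth. The RefSeq windows give 1 start per gene, and peaks are not replicates.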

Other observations

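Some genes with LNCaP-only peaks belong to no list and were named after their values were seen. They are single values, and no share of a gene group was computed from them. PER3, a period protein of the circadian clock, had a fold of 14.1, CIART 11.3, CIPC 7.8 and NR1D1, the nuclear receptor REV-ERB alpha, 5.95. The summits at CIART, CIPC and NR1D1 lay in the promoter window, and the windows of CIART and CIPC held an E-box. MLX and MNT, basic helix-loop-helix proteins, had peaks of 6.14 and 4.03. CALR, an endoplasmic reticulum chaperone, had 10.6, with its summit 243 bases before the start and no E-box in the window. A PC3 PRMT5 entry of fold 6.12 that did not overlap this peak also lay at an end of CALR.

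Small RNA genes lay near some of the peaks. A peak of 13.6 stood in the ZBTB37 promoter, 452 bases from SNORD74, a gene of the GAS5 snoRNA cluster. Peaks of 5.41 and 7.1 were within 100 bases of the transfer RNA genes TRG-TCC1-1 (82 bases) and TRR-CCT4-1 (92 bases). Of all 563 peaks, 79 were within 3 kb of an end of a lncRNA gene, 11 of a miRNA gene, 38 of a pseudogene and 15 of a transcribed pseudogene. The genes with such a peak were 0.404% of lncRNA genes, 0.575% of miRNA genes, 0.334% of pseudogenes and 1.03% of transcribed pseudogenes, beside 1.06% of protein-coding genes.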
